A study of Mus musculus with 12 samples.

Results

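The genes described here are those whose response to suspension differed most between JNK-deficient and control mouse kidney epithelial cells. The response in each genotype was log2((suspended FPKM + 1)/(attached FPKM + 1)), where FPKM is fragments of RNA scaled by transcript length and library size. The difference was the response of JNK-deficient cells minus that of control cells. It was taken for the 10136 of 31026 entries that reached at least 5 FPKM in 1 of the 4 values, and these 10136 entries are called members.

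The 12 samples were C57BL/6 kidney epithelial cells in 4 groups of 3. The control genotype was Rosa-CreER, and JNK-deficient cells were Jnk1flox/flox Jnk2-/- Rosa-CreER, labelled Jnk1-/- Jnk2-/-, so every group carried Rosa-CreER. Cells of each genotype were either attached as a monolayer or suspended for 4 h. For each group the authors' deposited tables hold a single FPKM value, with the 3 samples pooled, so no value per sample, no SD and no depth could be given. The 2 genotypes' responses come from separately scaled tables. Log2 ratios and q-values between genotypes within 1 state are therefore taken from the tables in which both genotypes stand together. Printed FPKM values and sums come from the response tables, which differed from these by a median of up to 0.09 on the log2 scale. Paired values are given as attached, then suspended.

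JNK is a stress-activated protein kinase that phosphorylates Jun and other AP-1 transcription factors. Epithelial cells that lose contact with the matrix can die by anoikis, a form of apoptosis that the BH3-only proteins Bim and Bmf promote. Inflammatory genes such as chemokines and adhesion molecules are commonly switched on by NF-κB, which binds κB sites, and antiviral genes by interferon, whose STAT and IRF factors bind the interferon-stimulated response element, ISRE.

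Both targeted genes stood lower without JNK, attached or suspended, by log2 ratios of -1.95 and -2.11 for Mapk8 and -0.52 and -0.74 for Mapk9. Mapk8, which encodes JNK1 (chr14:33377899-33447158, mm10), was at 9.32 FPKM in attached and 10.7 FPKM in suspended control cells and at 2.27 and 2.39 FPKM in JNK-deficient cells, by the authors' deposited tables. Mapk9, which encodes JNK2 (chr11:49846751-49886421), was at 13.6 and 28.7 FPKM in control and at 8.94 and 16.5 FPKM in JNK-deficient cells, by the authors' deposited tables. Neither gene's response differed between genotypes past the test built on the authors' p-values (differences -0.13 and -0.20, adjusted p = 0.958 and 0.891). The remaining reads were not located within these genes, since the tables hold no value per exon. Of the 12 kidney epithelium markers, 10 were members, with summed levels of 4793 and 2601 FPKM in attached and suspended control cells and 4389 and 2613 FPKM in JNK-deficient cells, while Lhx1 was near 0 and Emx1 at 0. No endothelial or fibroblast marker was a member. Of 10 leukocyte markers with an entry, 4 were members, their list summing to 55.7, 71.0, 77.9 and 78.3 FPKM in the same order, and Itgam, Emr1, Tyrobp, Lyz2 and Cd3e were under 1 FPKM in all 4 groups.

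Most genes responded alike. By the authors' q below 0.05, 65.1% of the entries tested changed with suspension in control cells (33% up, 32.1% down) and 59.7% in JNK-deficient cells (30.6% up, 29% down). The median difference was 0.06 with quartiles of -0.10 and 0.19, and 9320 members (91.9%) differed by less than 0.5 on the log2 scale. The 690 named genes that rose by at least 2-fold in control cells had a median response of 1.39 there and of 1.33 in JNK-deficient cells, and 683 of them had the same sign in both. The 1210 that fell by at least 2-fold in control cells had a median of -1.42 in both genotypes. At the edges, 111 members (1.1%) had a difference of -1 or below, a lower response in JNK-deficient cells, and 67 (0.661%) had a difference of 1 or above.

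The difference was tested by a z-test on the log2 ratios without the added 1 FPKM, called the tested difference here, with standard errors (SE) derived from the authors' p-values. Of 12765 entries tested, 160 were lower in JNK-deficient cells (1.25%) and 70 higher (0.548%), or 1.8% in all, at an adjusted p below 0.05, and 1424 had an unadjusted p below 0.05. Among members these were 118 and 63 of 10029 tested. The test uses the same values that order the genes, so it bears on precision and is no separate evidence for the genes at the ends of the order. In these bulk samples fewer cells of a type and less RNA per cell cannot be told apart.

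**Figure D1:**
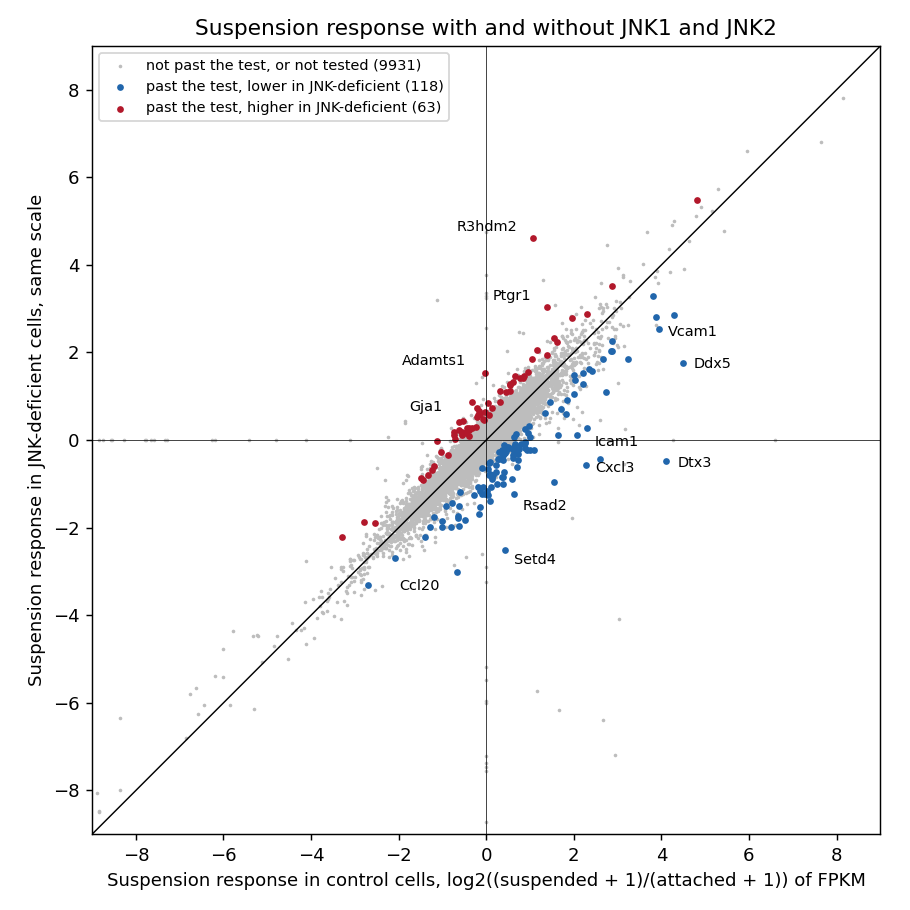
Each point is 1 of 10112 members, plotted by its log2 response to suspension in control cells (x axis) and in JNK-deficient cells (y axis), both with 1 FPKM added; 24 members lie outside the axes, and colours mark entries past the test. Most points lie along the diagonal, with 118 lower and 63 higher in JNK-deficient cells among all members.

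The ends of the order held different kinds of entries. Among members with a difference of at least 1 in size, 82 were named genes, 63 lower and 19 higher, and 49 of these 82 were past the test. Small RNA entries, such as microRNA and small nucleolar RNA genes, made up 55 members, of which 41 lay at these ends (74.5%) and 1 could be tested, with neither an adjusted nor an unadjusted p below 0.05. Among named genes the share was 0.906%. The spread narrowed with level, from an interquartile range of 0.374 for named genes whose highest value was 5 to 10 FPKM to 0.25 at 100 FPKM and above. Just outside the FPKM threshold stood Gch1 at 4.997 FPKM (difference -0.43) and Bbs10 at 4.998 FPKM (-0.22), and just inside it Klhl15 (0.06) and AI597468 (-0.04), both at 5.001 FPKM.

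Among the 9046 named members, 63 had a difference of -1 or below and 19 of 1 or above, and 107 were lower and 59 higher by the test. Of the 25 named genes with the most negative difference, from -4.60 to -1.38, 20 were past the test and 1 could not be tested. Over all entries tested 1.25% were lower, and these 25 were chosen by the values that the test uses. Among the 25 were the adhesion genes Icam1 and Vcam1, the chemokine genes Cxcl3, Cxcl5, Ccl20 and Ccl2, and the interferon-induced genes Rsad2, Usp18, Rtp4 and Oasl2.

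Promoters of 6 genes of the lower side are shown because they hold letters matching a κB site (GGAAANNCC) or an ISRE (GAAA, any 2 bases, GAAA), searched on both strands and printed in capitals. They are 6 of the 7 genes named by the rule with such a match, and the other, Ncdn, lies on the higher side and is not printed. Each runs 5′ to 3′ on the gene's strand from 250 bases before to 50 bases after the RefSeq start (GRCm38.p6, the assembly of mm10). Icam1 lies at chr9:21015690-21015989 on the plus strand, Cxcl3 at chr5:90785851-90786150 plus, Ccl20 at chr1:83116516-83116815 plus, Tnip3 at chr6:65590148-65590447 plus, Nfkbia at chr12:55492598-55492897 minus and Rsad2 at chr12:26456403-26456702 minus.
Icam1: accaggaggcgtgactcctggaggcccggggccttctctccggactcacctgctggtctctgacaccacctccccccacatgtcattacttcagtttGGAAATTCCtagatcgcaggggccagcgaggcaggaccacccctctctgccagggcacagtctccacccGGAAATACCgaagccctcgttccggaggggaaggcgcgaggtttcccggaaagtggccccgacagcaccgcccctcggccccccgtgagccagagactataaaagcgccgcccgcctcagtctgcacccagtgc
Cxcl3: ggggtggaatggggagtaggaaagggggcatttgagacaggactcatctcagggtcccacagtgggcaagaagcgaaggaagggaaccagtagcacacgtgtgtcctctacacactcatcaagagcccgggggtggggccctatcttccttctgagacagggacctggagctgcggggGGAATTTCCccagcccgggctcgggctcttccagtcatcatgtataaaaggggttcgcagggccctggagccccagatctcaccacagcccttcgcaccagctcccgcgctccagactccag
Ccl20: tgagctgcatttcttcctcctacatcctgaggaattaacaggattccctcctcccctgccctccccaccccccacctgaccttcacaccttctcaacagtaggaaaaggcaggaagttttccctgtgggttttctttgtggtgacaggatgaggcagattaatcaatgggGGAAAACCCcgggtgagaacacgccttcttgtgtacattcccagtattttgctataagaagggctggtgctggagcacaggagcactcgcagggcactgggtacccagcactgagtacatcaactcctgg
Tnip3: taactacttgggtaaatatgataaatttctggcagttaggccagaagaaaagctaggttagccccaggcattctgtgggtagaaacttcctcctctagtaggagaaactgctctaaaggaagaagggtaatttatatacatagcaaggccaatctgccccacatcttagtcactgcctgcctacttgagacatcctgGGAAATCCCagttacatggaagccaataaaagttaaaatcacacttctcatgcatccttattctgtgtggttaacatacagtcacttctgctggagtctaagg
Nfkbia: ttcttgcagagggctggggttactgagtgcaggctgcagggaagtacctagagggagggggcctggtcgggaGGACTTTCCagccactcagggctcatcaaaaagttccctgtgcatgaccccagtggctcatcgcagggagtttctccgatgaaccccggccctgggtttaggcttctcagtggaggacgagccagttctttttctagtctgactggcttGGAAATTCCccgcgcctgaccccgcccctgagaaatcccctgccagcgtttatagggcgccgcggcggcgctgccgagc
Rsad2: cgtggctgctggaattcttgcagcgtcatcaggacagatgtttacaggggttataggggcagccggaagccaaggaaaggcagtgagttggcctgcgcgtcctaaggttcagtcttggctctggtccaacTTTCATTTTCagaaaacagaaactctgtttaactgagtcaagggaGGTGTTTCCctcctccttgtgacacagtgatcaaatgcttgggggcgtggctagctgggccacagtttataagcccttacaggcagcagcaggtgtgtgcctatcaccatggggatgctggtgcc

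Icam1 holds κB letters beginning 153 and 84 bases before its start, Nfkbia at 178 and 29, Ccl20 at 80, Cxcl3 at 72 and Tnip3 at 53. Rsad2 holds an ISRE match beginning at 120 bases, then an AP-1 match (TGANTCA, left in lower case) at 87 and a κB match at 75. Over all 27025 RefSeq genes with a promoter of this length, 6.62% held a κB match, 3.99% an ISRE, 8.97% an AP-1 and 13.99% an antioxidant response element (ARE, TGACNNNGC, which can overlap AP-1). Among the 7344 named members with a promoter the shares were 7.41%, 3.49%, 5.86% and 17.7%. Of the 85 named genes lower by the test with a promoter, 17 held κB (20%), 11 ISRE (12.9%), 7 AP-1 (8.24%) and 19 ARE letters (22.4%). Of the 52 higher by the test, 3 held κB (5.77%), 0 ISRE, 7 AP-1 (13.5%) and 12 ARE letters (23.1%). Of the 25 most negative genes 13 had a promoter, and 5 held κB and 5 ARE letters (38.5% each). Of the 18 with a promoter among the 25 most positive, 1 held κB (5.56%) and 3 ARE letters (16.7%). In the printed promoters, ARE letters, left in lower case, begin 231 bases before the start in Rsad2 and 13 in Nfkbia. These matches are descriptions of letters, and binding was not measured.

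Icam1, Vcam1, Tnip3, Cd40 and Nfkbia had lower responses in JNK-deficient cells. Icam1 (chr9:21015960-21028796), the leukocyte adhesion molecule ICAM-1, was at 2.13 FPKM in attached and 14.5 FPKM in suspended control cells, and at 2.83 and 3.65 FPKM in attached and suspended JNK-deficient cells in the authors' deposited tables. It rose past the authors' test in control cells (q = 0.000123) but not in JNK-deficient cells (q = 0.131), and the tested difference was -2.40 (SE 0.49, adjusted p = 0.000502). Vcam1 (chr3:116110020-116129688), another adhesion molecule, was at 1.29 and 34.3 FPKM in control and 3.24 and 23.8 FPKM in JNK-deficient cells, by the authors' deposited tables. It rose in both genotypes, and its smaller JNK-deficient response (tested difference -1.86, SE 0.40, adjusted p = 0.00106) went with a higher attached level, by 1.41 on the log2 scale (q = 0.000347), and a suspended level that did not differ past the authors' test (-0.47, q = 0.094).

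Tnip3 (chr6:65590398-65634040), which encodes an A20-binding inhibitor of NF-κB signalling, was at 0.130 and 21.1 FPKM in attached and suspended control and 0.441 and 9.50 FPKM in JNK-deficient cells, by the authors' deposited tables. It rose from a very low level in both genotypes (tested difference -2.92, SE 0.60 by the authors' p-values, adjusted p = 0.00049). Cd40 (chr2:165055636-165071654), a TNF receptor family member, was at 2.13 and 12.1 FPKM in control and 1.57 and 1.77 FPKM in JNK-deficient cells, by the authors' deposited tables, so that only the suspended control group was high (-2.33, SE 0.69, adjusted p = 0.0414). Nfkbia (chr12:55489409-55492647), the inhibitor IκBα and itself an NF-κB target, was at 28.4 and 24.7 FPKM in control and 34.3 and 15.7 FPKM in JNK-deficient cells, by the authors' deposited tables. It fell past the authors' test in JNK-deficient cells alone (q = 0.000144, against 0.121 in control), with a tested difference of -0.92 (SE 0.21, adjusted p = 0.0022).

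Of the 15 genes of the NF-κB list that were tested, Icam1, Vcam1 and Nfkbia were lower by the test and 0 were higher, beside 1.25% and 0.548% over all entries. By unadjusted p, 4 were lower and 2 higher. The median difference of its 14 members was -0.13, against 0.06 over all members, and 10 lay below that overall median. The subunit genes did not pass the test. Nfkb1, for example, was at 38.8 and 28.6 FPKM in control and 30.9 and 26.9 FPKM in JNK-deficient cells, by the authors' deposited tables (tested difference 0.24, adjusted p = 0.706). Relb was at 20.2 and 20.6 FPKM in control and 20.2 and 17.05 FPKM in JNK-deficient cells (-0.28, adjusted p = 0.703) in the authors' deposited tables. When standard errors came from the authors' suspension tables alone, Icam1, Vcam1, Nfkbia, Tnip3 and Cd40 were no longer past the test (adjusted p from 0.0708 for Cd40 to 0.989 for Vcam1).

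Of the 4 chemokine genes named here, Cxcl5, Ccl20 and Ccl2 differed more between genotypes while attached, and Cxcl3 more in suspension. Cxcl3 (chr5:90786103-90788090), a neutrophil attractant, was at 0.885 and 8.12 FPKM in attached and suspended control and 1.35 and 0.597 FPKM in JNK-deficient cells, by the authors' deposited tables. It rose in control cells alone, and its suspended level was lower in JNK-deficient cells (log2 ratio -3.70; tested difference -4.38, SE 0.94 by the authors' p-values, adjusted p = 0.00117). Its neighbour Cxcl5 (chr5:90759299-90761625), also a neutrophil attractant, was at 3.33 and 11.7 FPKM in control and 38.9 and 19.5 FPKM in JNK-deficient cells, by the authors' deposited tables. Cxcl5 rose in control cells while it fell in JNK-deficient cells (-2.80, SE 0.51 by the authors' p-values, adjusted p = 5.35e-05), yet JNK-deficient cells held more of it in both states, by 3.63 attached (q = 0.000347) and 0.79 suspended (q = 0.00182).

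Ccl20 (chr1:83116766-83119167), the ligand of CCR6, was at 48.7 and 30.2 FPKM in control and 140 and 16.5 FPKM in JNK-deficient cells, by the authors' deposited tables. It fell in both genotypes and from a higher attached level in JNK-deficient cells (tested difference -2.40, SE 0.47 by the authors' p-values, adjusted p = 0.00016). Ccl2 (chr11:82035577-82037452), which attracts monocytes, was at 6.09 and 8.25 FPKM in control and 15.04 and 6.99 FPKM in JNK-deficient cells, by the authors' deposited tables. Its suspended levels did not differ past the authors' test (-0.19, q = 0.817), and the difference came with the higher attached level (tested difference -1.54, SE 0.36, adjusted p = 0.00298). Cxcl5, Ccl20 and Ccl2 were the 3 genes lower by the test among the 13 tested of the chemokine list, and 0 were higher, beside 1.25% and 0.548% over all entries. By unadjusted p, 5 of the list were lower and 1 higher. The median difference of the 11 list members was -0.32, with 10 below the overall median. The calls of Cxcl5 and Ccl2 ended with standard errors from the authors' genotype tables alone (adjusted p = 0.0994 and 0.0614), and that of Ccl20 with those from the suspension tables alone (0.156). The macrophage growth factor gene Csf1 was the exception, at 42.8 and 126 FPKM in control and 27.0 and 115 FPKM in JNK-deficient cells (0.51, adjusted p = 0.16) in the authors' deposited tables.

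The interferon-induced genes lay on 1 side as a group. All 15 of the list were members, with differences from -1.85 to -0.28 and a median of -0.59, all below the overall median of 0.06. Of these 15, 6 were lower by the test, Rsad2, Oasl2, Usp18, Irf7, Ifit2 and Ifit3, and 0 were higher, beside a background of 1.25% lower. By unadjusted p, 13 were lower and 0 higher. Summed over the list, the level went from 637 to 446 FPKM in control and from 720 to 303 FPKM in JNK-deficient cells. The list's median response was -0.28 in control cells, against -1.18 in JNK-deficient cells. Of the 13 with a promoter, 8 held an ISRE match (61.5%).

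Rsad2 (chr12:26442743-26456452), which encodes the antiviral protein viperin, was at 16.1 and 25.5 FPKM in attached and suspended control and 14.1 and 5.46 FPKM in JNK-deficient cells, by the authors' deposited tables. It rose in control cells while it fell in JNK-deficient cells (tested difference -2.03, SE 0.37, adjusted p = 6.33e-05), while its attached levels did not differ past the authors' test (-0.11, q = 0.389). Oasl2 (chr5:114896934-114912245), an oligoadenylate synthetase-like gene, had the same shape, at 6.48 and 10.3 FPKM in control and 6.18 and 2.90 FPKM in JNK-deficient cells, by the authors' deposited tables (-1.76, SE 0.31, adjusted p = 5.35e-05). Usp18 (chr6:121245906-121270917), the protease that removes ISG15 from proteins, was at 21.02 and 18.6 FPKM in control and 16.9 and 4.55 FPKM in JNK-deficient cells, by the authors' deposited tables. Its fall passed the authors' test in JNK-deficient cells alone (q = 0.000144, against 0.199 in control; tested difference -1.72, SE 0.48, adjusted p = 0.0292).

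Rtp4 (chr16:23609919-23614222), an interferon-induced gene outside the list, was at 11.1 and 11.9 FPKM in control and 12.4 and 4.12 FPKM in JNK-deficient cells, by the authors' deposited tables, with only the suspended JNK-deficient group low (-1.69, SE 0.38, adjusted p = 0.00196). Irf7 (chr7:141263183-141266424), the transcription factor that amplifies interferon, was at 26.5 and 16.9 FPKM in control and 28.5 and 9.37 FPKM in JNK-deficient cells, by the authors' deposited tables. It fell in both genotypes and further in JNK-deficient cells (-0.95, SE 0.23 by the authors' p-values, adjusted p = 0.00583). Stat2, a subunit of the factor that binds ISRE, was at 9.56 and 16.5 FPKM in control and 9.74 and 11.0 FPKM in JNK-deficient cells, by the authors' deposited tables and did not pass the test of the difference (-0.61, adjusted p = 0.0749). Isg15, which encodes a ubiquitin-like modifier, fell from 49.3 to 17.1 FPKM in control and from 55.7 to 10.6 FPKM in JNK-deficient cells, by the authors' deposited tables, also without passing it (-0.87, adjusted p = 0.11). Through the authors' suspension tables alone 3 of the list were lower by the test, and Irf7 was not among them (adjusted p = 0.582). With the larger of the upper bounds from the authors' p-values, Usp18 was not past the test (adjusted p = 0.0607).

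Of the genes past the test, 9 groups lower and 2 groups higher lay within 200000 bases of each other. No count over all entries tested stands beside these, so the groups describe position only. Oas1c, Oas1b, Oas1g and Oas1a, oligoadenylate synthetase genes, lay at chr5:120800199-120907525. Ifit2 and Ifit3, which encode proteins that bind viral RNA, lay at chr19:34550694-34588982, and Rsad2 lay beside the nucleotide kinase gene Cmpk2 at chr12:26442743-26479837. Cxcl5 and Cxcl3 lay at chr5:90759299-90788090. The other lower groups were the pairs Neurl3 and Arid5a, Abcg1 and Slc37a1, Hspb1 and Srcrb4d, Usp18 and Slc6a12, and Bnip3 and Lrrc27, and the higher ones Tfrc and Muc20, and Adamts1 and Adamts5. Arid5a, Abcg1, Lrrc27, Oas1b, Oas1g and Adamts5 stayed below 5 FPKM and are not members. Within the Oas1 group, Oas1a was at 9.13 and 9.96 FPKM in control and 7.80 and 3.16 FPKM in JNK-deficient cells, by the authors' deposited tables (tested difference -1.43, SE 0.35, adjusted p = 0.00643). The Oas1 and Ifit genes are close copies, and reads shared between copies could not be separated.

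**Figure D2:**
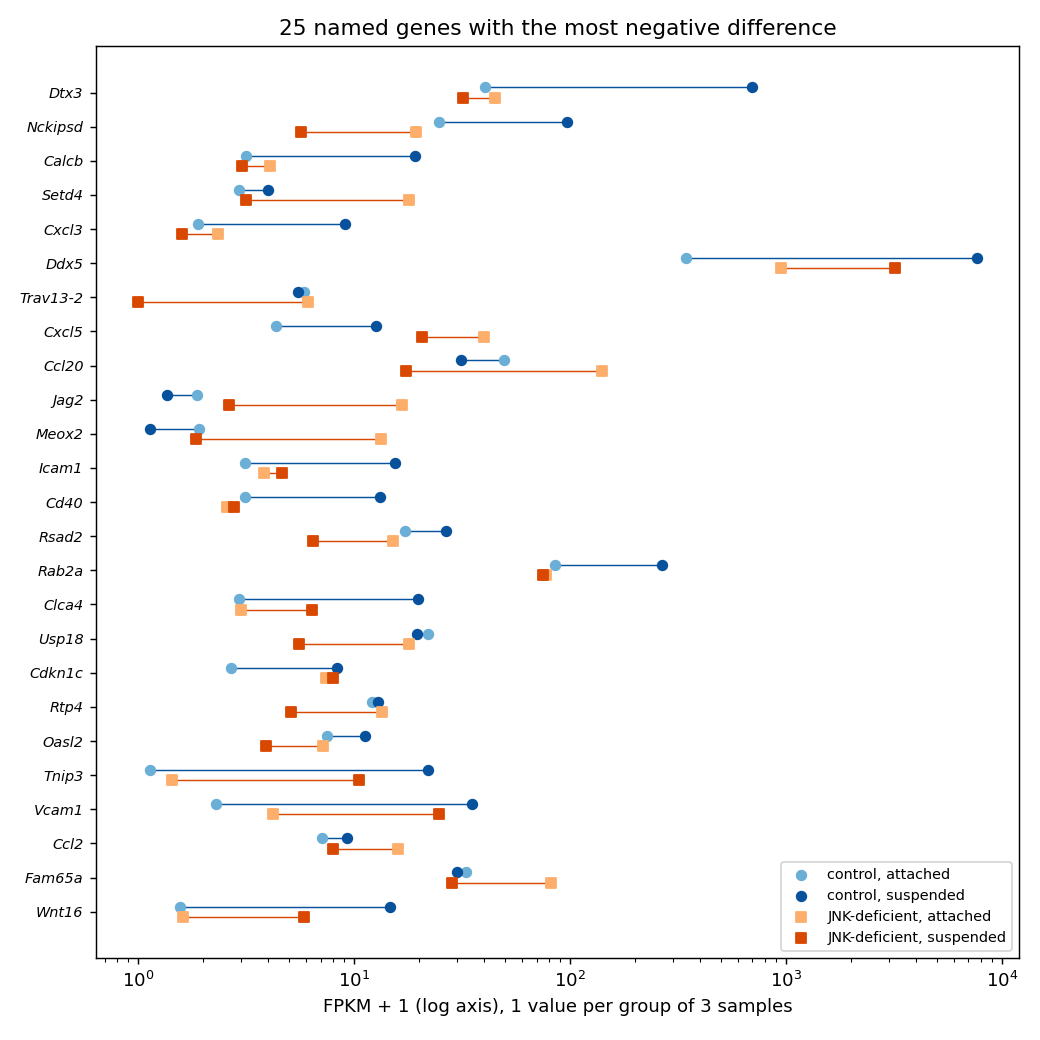
FPKM + 1 on a log axis for the 25 named genes with the most negative difference, 1 value per group, with circles for control, squares for JNK-deficient cells and a line from attached to suspended. Icam1, Cd40 and Calcb are high in the suspended control group alone, while Setd4, Jag2 and Meox2 are high in the attached JNK-deficient group alone.

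Other genes rose in suspended control cells and less or not in JNK-deficient cells. Calcb (chr7:114718643-114723365), which encodes the beta form of calcitonin gene-related peptide, was at 2.17 and 18.1 FPKM in control and 3.08 and 2.03 FPKM in JNK-deficient cells, by the authors' deposited tables (tested difference -3.66, SE 0.78, adjusted p = 0.000901). Clca4 (chr3:144822624-144849302), of the chloride channel accessory family, was at 1.95 and 18.7 FPKM in control and 2.003 and 5.38 FPKM in JNK-deficient cells, by the authors' deposited tables (-1.84, SE 0.44, adjusted p = 0.00583). Wnt16 (chr6:22288227-22298522), which encodes a secreted Wnt ligand, was at 0.567 and 13.7 FPKM in control and 0.618 and 4.85 FPKM in JNK-deficient cells, by the authors' deposited tables (-1.62, SE 0.42, adjusted p = 0.0139). The attached levels of Clca4 and Wnt16 did not differ past the authors' test (q = 0.428 and 0.573), and the suspended levels did (q = 0.00099 each). Neither was past the test with standard errors from the authors' suspension tables alone (highest adjusted p = 0.654 for Clca4 and 1 for Wnt16).

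The most negative difference of all named genes was that of Dtx3 (chr10:127190378-127211622), which encodes a Deltex family ubiquitin ligase. It was at 39.2 FPKM in attached control, 696 FPKM in suspended control, 43.7 FPKM in attached JNK-deficient and 30.9 FPKM in suspended JNK-deficient cells in the authors' deposited tables, so that 1 group stood far above the other 3 (tested difference -4.65, SE 1.07, adjusted p = 0.00286). Its locus overlaps those of Pip4k2c and F420014N23Rik. Ddx5 (chr11:106780356-106818861), an RNA helicase gene, was at 343 and 7702 FPKM in control and 946 and 3210 FPKM in JNK-deficient cells, by the authors' deposited tables and rose in both (-2.73, SE 0.48, adjusted p = 5.35e-05). Through the authors' suspension tables alone it was not past the test (highest adjusted p = 0.543), and its locus overlaps that of Ccdc45. Nckipsd and Rab2a also had their highest value in suspended control cells, without passing the test. Nckipsd, which encodes an SH3 adaptor protein, was at 23.8 and 95.8 FPKM in control and 18.4 and 4.66 FPKM in JNK-deficient cells (adjusted p = 0.17), and Rab2a, a small GTPase gene, at 84.2 and 266 FPKM in control and 76.8 and 74.4 FPKM in JNK-deficient cells (adjusted p = 0.739) in the authors' deposited tables. Trav13-2, a T cell receptor segment gene, was listed at 0 in suspended JNK-deficient cells and at 4.87, 4.49 and 5.10 FPKM in attached control, suspended control and attached JNK-deficient cells, by the authors' deposited tables. It was not tested, and its locus as given overlaps 67 other entries.

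Another set of genes on the lower side was high in attached JNK-deficient cells. Setd4 (chr16:93583461-93603815), a SET domain methyltransferase gene, was at 1.95 and 2.98 FPKM in control and 17.0 and 2.17 FPKM in JNK-deficient cells, by the authors' deposited tables (tested difference -3.58, SE 0.78, adjusted p = 0.0012). Its attached levels differed by 3.22 on the log2 scale (q = 0.000347) and its suspended levels did not differ past the authors' test (-0.41, q = 0.537). Fam65a (chr8:105566698-105682922) was at 32.2 and 28.9 FPKM in control and 80.8 and 27.3 FPKM in JNK-deficient cells, by the authors' deposited tables (-1.41, SE 0.41, adjusted p = 0.0378). It lost the call after correction for GC content and length, with the authors' suspension tables alone as the source of errors, and with the larger upper bound (highest adjusted p = 0.0707). The locus of Fam65a overlaps those of Agrp and Ctcf. Cdkn1c (chr7:143458339-143461050), the CDK inhibitor p57, was at 1.69 and 7.32 FPKM in control and 6.38 and 6.98 FPKM in JNK-deficient cells, by the authors' deposited tables. It rose in control cells to near the level that JNK-deficient cells already had while attached (-1.98, SE 0.56, adjusted p = 0.0315, and 0.0519 with standard errors from the authors' suspension tables alone).

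The Notch ligand gene Jag2 was at 0.872 and 0.359 FPKM in control and 15.7 and 1.63 FPKM in JNK-deficient cells, by the authors' deposited tables. The homeobox gene Meox2 was at 0.904 and 0.138 FPKM in control and 12.3 and 0.852 FPKM in JNK-deficient cells, by the authors' deposited tables. Both fell in either genotype from very different attached levels, and without the added 1 FPKM the differences were -1.99 (SE 0.88 by the authors' p-values, adjusted p = 0.339) and -1.14 (SE 1.27, adjusted p = 0.876).

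Across the 63 named genes with a difference of -1 or below, the genotypes stood further apart in suspended than in attached cells for 47 and the reverse for 16. The median JNK-deficient over control value was 0.23 attached and -1.27 suspended on the log2 scale with 1 FPKM added. By the authors' q, 31 were higher and 9 lower in attached JNK-deficient cells, and 2 were higher and 43 lower in suspended ones. Over all entries, 14.7% were higher and 14.1% lower while attached, and 5.57% higher and 6.93% lower in suspension, by the same rule. Because the difference is the suspended gap minus the attached gap, apart from table scaling, these counts describe how each difference is made up and are not a test. Of the 63, 18 rose by at least 2-fold in control cells alone, 25 fell by at least 2-fold in JNK-deficient cells alone, 8 rose in both, 1 went up in control and down in JNK-deficient cells, and 11 moved by under 2-fold in each.

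**Figure D3:**
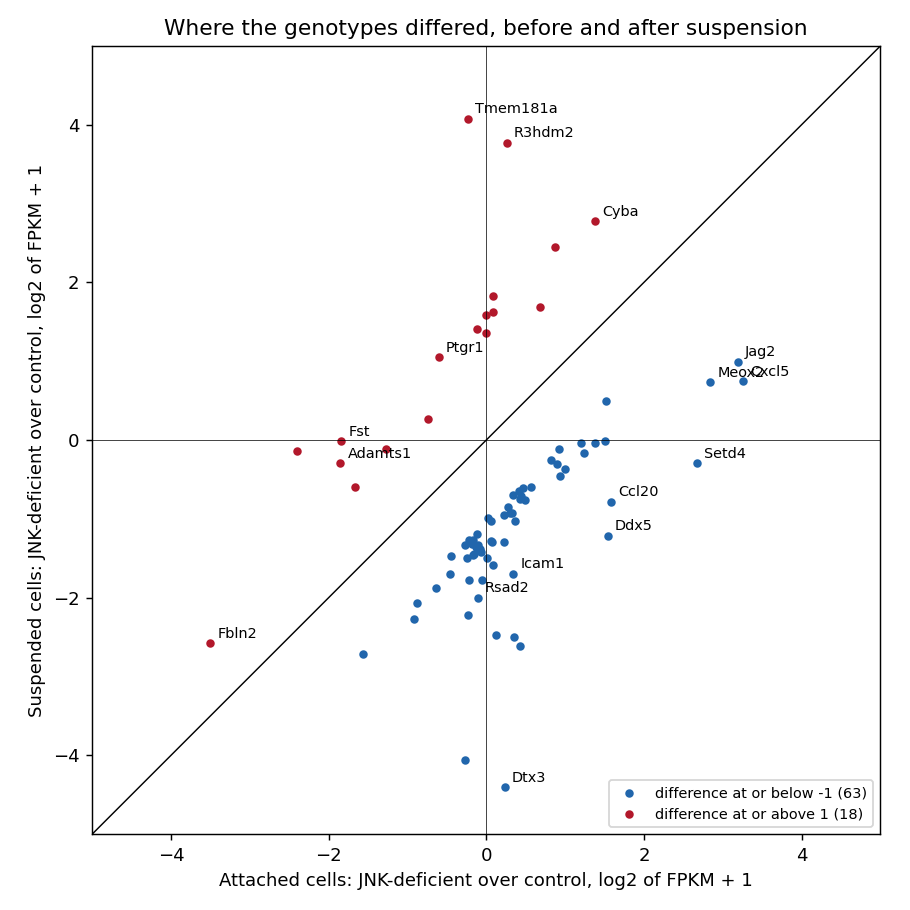
JNK-deficient over control on the log2 scale with 1 FPKM added, in attached (x axis) and suspended cells (y axis), for the 63 named genes with a difference of -1 or below and 18 of the 19 at 1 or above (Eef1a1, listed at 0 in 1 group, is left out). For 47 of the 63 lower genes the suspended gap is the larger, and for 16 the attached gap.

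The higher side held fewer named genes with a difference of at least 1 in size, 19 against 63. Of the 25 named genes with the most positive difference, from 12.90 to 0.93, 8 were past the test and 1 could not be tested. The largest value, that of the translation elongation factor gene Eef1a1 (chr9:78478453-78481724), rests on 1 group listed at 0. Eef1a1 was at 5698 and 6879 FPKM in control and at 0 and 9204 FPKM in attached and suspended JNK-deficient cells in the authors' deposited tables, and no fold is given. Whether the listed 0 is an estimate that failed was not tested.

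Ptgr1 and the gap junction genes Gja1 and Gjb1 rose in JNK-deficient cells beyond the control response. Ptgr1 (chr4:58965590-58987078), which encodes a prostaglandin reductase, was at 2.98 and 9.32 FPKM in attached and suspended control and 1.51 and 19.6 FPKM in JNK-deficient cells, by the authors' deposited tables. It was lower than control while attached and higher in suspension (tested difference 2.05, SE 0.36 by the authors' p-values, adjusted p = 5.35e-05; 0.678 with standard errors from the suspension tables alone). Gja1 (chr10:56377273-56390419), connexin 43, was at 50.6 and 32.7 FPKM in control and 28.2 and 38.1 FPKM in JNK-deficient cells, by the authors' deposited tables, moving in opposite directions in the genotypes (1.06, SE 0.19, adjusted p = 6.33e-05). Gjb1 (chrX:101377337-101385624), connexin 32, was at 2.64 and 2.15 FPKM in control and 4.31 and 7.88 FPKM in JNK-deficient cells, by the authors' deposited tables (1.16, SE 0.34, adjusted p = 0.0414), and it lost the call under 5 of 7 alternatives (highest adjusted p = 0.324).

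Adamts1, Adamts5 and Mmp14 were the matrix protease genes described here that were higher by the test. Adamts1 (chr16:85793828-85803115), a secreted metalloprotease gene, was at 70.5 and 68.6 FPKM in control and 17.7 and 53.6 FPKM in JNK-deficient cells, by the authors' deposited tables. It rose in JNK-deficient cells alone (q = 0.000144, against 0.741 in control; tested difference 1.63, SE 0.41 by the authors' p-values, adjusted p = 0.00803) from a lower attached level (log2 ratio -1.91). The call of Adamts1 ended with standard errors from the authors' genotype tables alone (adjusted p = 0.0526). Its neighbour Adamts5, another protease of the family that stayed below 5 FPKM and stands on no list here, was also higher by the test (chr16:85793828-85901125 for the pair). Mmp14, the membrane-bound collagenase MT1-MMP, was at 96.4 and 62.0 FPKM in control and 42.8 and 50.2 FPKM in JNK-deficient cells, by the authors' deposited tables (0.87, SE 0.20, adjusted p = 0.00245). Of the 11 matrix protease genes tested, Adamts1 and Mmp14 were the 2 past the test (by unadjusted p, 3 were higher and 4 lower), while the list's median difference was -0.13 and 6 of its 9 members lay below the overall median. Over all entries 0.548% were higher by the test.

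R3hdm2 (chr10:127380910-127499384), which encodes an R3H domain protein, was at 67.9 and 143 FPKM in control and 77.1 and 1908 FPKM in JNK-deficient cells, by the authors' deposited tables, the suspended JNK-deficient group standing far above the rest (tested difference 3.56, SE 0.94, adjusted p = 0.0164). Its call ended with standard errors from the authors' suspension tables alone (highest adjusted p = 0.169). The O-glycosylation gene Galnt10 (chr11:57623698-57787500) was at 20.96 and 9.12 FPKM in control and 5.58 and 5.50 FPKM in JNK-deficient cells, by the authors' deposited tables, falling in control cells to a level nearer that of JNK-deficient cells (1.18, SE 0.35, adjusted p = 0.0408). Arhgdig (chr17:26199183-26201350) was at 6.36 and 4.86 FPKM in control and 1.91 and 4.28 FPKM in JNK-deficient cells, by the authors' deposited tables (1.55, SE 0.42, adjusted p = 0.0208). The calls of Galnt10 and Arhgdig ended under 4 and 2 of the alternatives to the test on the authors' p-values (highest adjusted p = 0.371 and 0.122). The locus of Galnt10 overlaps that of AK016898. Rn45s (chr17:39842997-39848829), the ribosomal RNA precursor, was at 99.9 and 69.4 FPKM in control and 82.6 and 112 FPKM in JNK-deficient cells, by the authors' deposited tables (0.97, SE 0.17, adjusted p = 5.35e-05). Messenger RNA was measured, and how far these values reflect leftover ribosomal RNA was not tested.

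**Figure D4:**
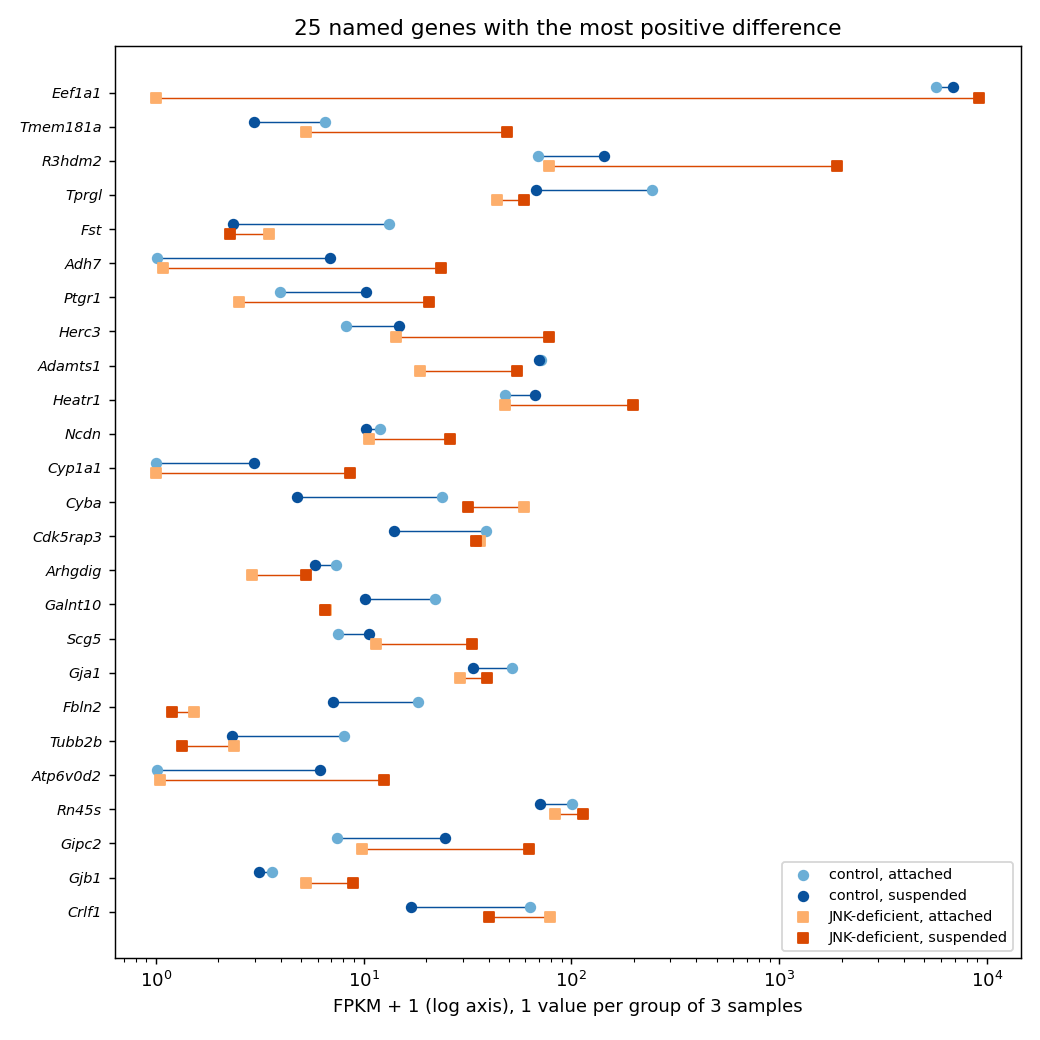
FPKM + 1 on a log axis for the 25 named genes with the most positive difference, drawn as circles for control and squares for JNK-deficient cells, 1 value per group, with a line from attached to suspended. R3hdm2 is high in suspended JNK-deficient cells alone, and the value at 1 for Eef1a1 is a listed 0.

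The other 16 tested genes of the 25 were not past the test, and several had large errors. Cyp1a1, the detoxifying target of the aryl hydrocarbon receptor, was at 0.00429 and 1.98 FPKM in control and 0.00427 and 7.57 FPKM in JNK-deficient cells, by the authors' deposited tables (SE 10.92, adjusted p = 0.989). Adh7, an alcohol and retinol dehydrogenase gene, was at 0.0168 and 5.90 FPKM in control and 0.0791 and 22.5 FPKM in JNK-deficient cells, by the authors' deposited tables. The difference of Adh7 was 1.68 with 1 FPKM added, 1.30 with 0.1 FPKM, 1.32 with 5 FPKM and -0.30 with nothing added (SE 7.70). That of Atp6v0d2, a subunit gene of the proton pump of lysosomes, was 0.96, 0.73, 0.68 and -1.03 in the same order. Both signs turned only with nothing added, and both genes stood below 0.1 FPKM in attached cells of either genotype. Fst, which encodes the activin antagonist follistatin, was at 12.3 and 1.35 FPKM in control and 2.52 and 1.28 FPKM in JNK-deficient cells, by the authors' deposited tables (tested difference 2.20, SE 0.67, adjusted p = 0.0509). The matrix gene Fbln2 was at 17.3 and 6.14 FPKM in control and 0.527 and 0.200 FPKM in JNK-deficient cells, by the authors' deposited tables. Its difference of 1.01 shrank to 0.10 without the added 1 FPKM (by the authors' p-values, adjusted p = 0.993).

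Across the 19 named genes with a difference of 1 or above, 6 rose by at least 2-fold in JNK-deficient cells alone, 6 fell by at least 2-fold in control cells alone, 4 rose in both, 1 went down in control and up in JNK-deficient cells, and 2 moved by under 2-fold in each. The suspended gap was the larger for 11 and the attached gap for 8.

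The lists of pathway genes spread around the overall median, with a few standing to 1 side. Cholesterol synthesis genes had 18 of 20 members below it (median -0.18), and 2 of 21 tested were lower by the test, among them Insig1, beside 1.25% of all entries. By unadjusted p, 6 were lower and 0 higher. Insig1, a sterol-responsive regulator of the pathway, was at 27.0 and 52.1 FPKM in control and 34.5 and 29.6 FPKM in JNK-deficient cells, by the authors' deposited tables (tested difference -1.17, SE 0.22, adjusted p = 6.33e-05). FOXO targets, which rise when growth factor signalling drops, had 11 of 11 members below the overall median (median -0.24), with 0 of 11 past the z-test in either direction (3 lower by unadjusted p) and median responses of 1.26 in control and 1.11 in JNK-deficient cells. S-phase genes had 16 of 17 members above it (median 0.29), with 0 of 19 past the z-test (1 higher by unadjusted p) and median responses of -0.79 in control and -0.53 in JNK-deficient cells. Over 9015 named members, Spearman correlations with GC content were -0.42 for the control response, -0.46 for the JNK-deficient response and -0.15 for the difference. List medians were not recomputed after GC correction, and a shift linked to GC content was not tested.

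**Figure D5:**
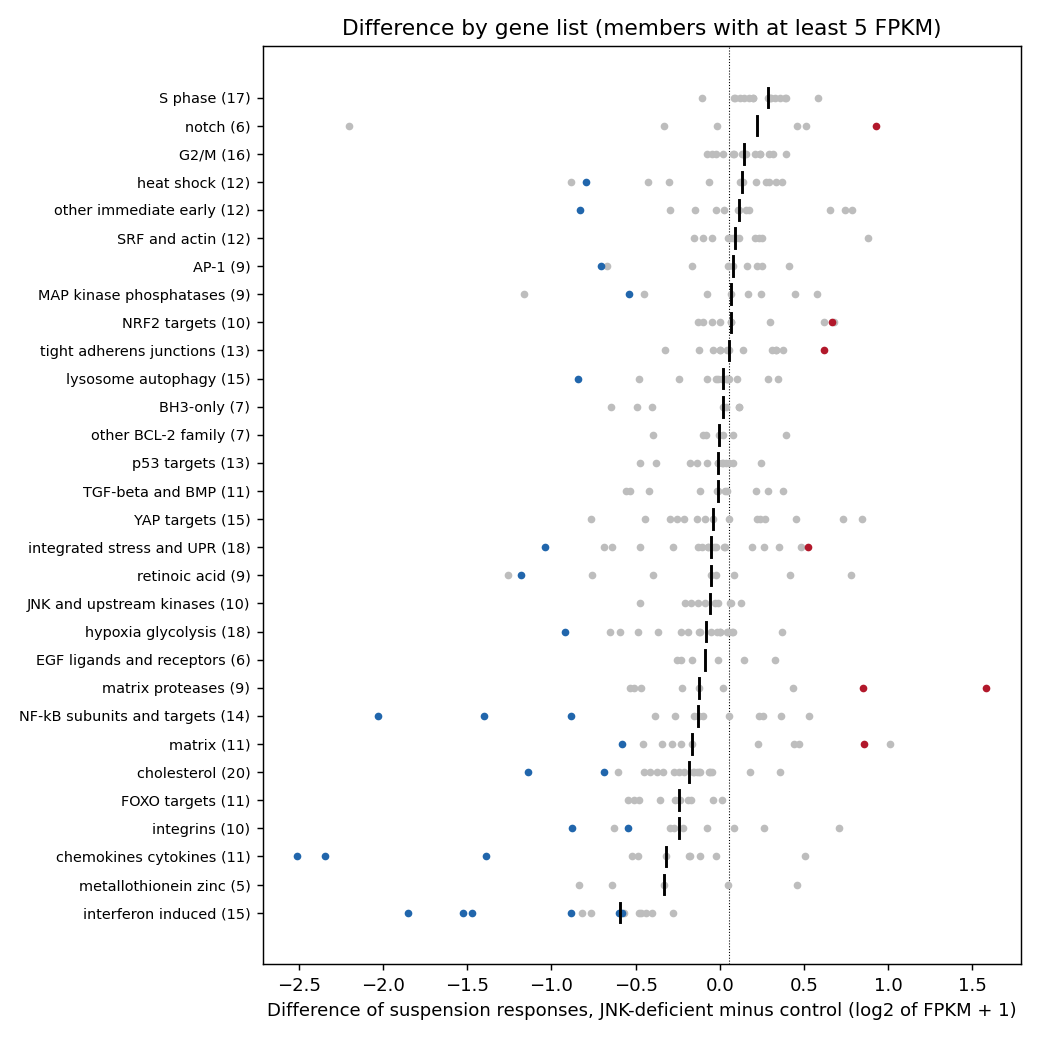
Difference of the suspension responses (JNK-deficient minus control, log2 with 1 FPKM added) of each member of the lists with at least 5 members, with the dotted line at the median of all members, 0.06, and blue and red points for genes lower and higher by the test. All 15 interferon-induced genes lie left of the line, and 16 of 17 S-phase genes lie right of it.

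Integrin genes went both ways. Itgb6, the epithelial beta subunit that activates TGF-beta, was at 20.7 and 32.5 FPKM in control and 39.6 and 33.2 FPKM in JNK-deficient cells, by the authors' deposited tables. It rose in control cells and did not change past the authors' test in JNK-deficient cells (q = 0.0699), whose suspended level did not differ from control past that test (q = 0.828; tested difference -0.91, SE 0.21 by the authors' p-values, adjusted p = 0.00217). Itgb3 was lower by the test with an adjusted p of 0.0478 (-0.65), a call that ended under 5 of 7 alternatives, up to an adjusted p of 0.411. Itgb8, which stayed below 5 FPKM and is no member, was at 0.455 and 1.30 FPKM in control and 0.201 and 1.90 FPKM in JNK-deficient cells, by the authors' deposited tables (1.72, SE 0.42, adjusted p = 0.00679). These were the 3 past the test among 11 integrin genes tested, beside 1.8% of all entries, and by unadjusted p 3 were lower and 2 higher. The call of Itgb6 ended with standard errors from the authors' genotype tables alone (adjusted p = 0.0847) and that of Itgb8 with those from the suspension tables alone (0.723).

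The list of AP-1 family genes had 1 of 11 tested genes lower by the test, Maff (tested difference -0.74, by the authors' p-values adjusted p = 0.0216), and 0 higher. By unadjusted p, 1 was lower and 1 higher, and the list's median difference was 0.08. Jun was at 8.47 and 6.49 FPKM in control and 1.77 and 1.31 FPKM in JNK-deficient cells, by the authors' deposited tables, lower in both states and with a difference of 0.08. Among stress-response genes, Herpud1 of the endoplasmic reticulum quality control was lower (-1.06, by the authors' p-values adjusted p = 5.35e-05) and the chaperone gene Hspa5 higher by the test (0.52, adjusted p = 0.0417). Srxn1, the NRF2 target that repairs oxidised peroxiredoxin, rose from 11.2 to 342 FPKM in control and from 9.80 to 481 FPKM in JNK-deficient cells, by the authors' deposited tables (0.68, adjusted p = 0.00607). The Notch target gene Hes1 fell from 41.2 to 5.11 FPKM in control and from 43.9 to 11.3 FPKM in JNK-deficient cells, by the authors' deposited tables (1.06, adjusted p = 0.0379). Maff, Herpud1, Hspa5, Srxn1 and Hes1 were not named by the rule, and the alternatives were not run on them. Of 18 integrated stress and unfolded protein genes tested, 1 was higher and 1 lower (by unadjusted p, 2 and 4). Of 10 NRF2 targets tested, 1 was higher and 0 lower (by unadjusted p, 3 and 0). Of 9 Notch genes tested, 1 was higher and 0 lower (by unadjusted p, 2 and 1). Over all entries, 0.548% were higher and 1.25% lower.

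The BH3-only genes, whose proteins promote apoptosis, did not pass the test of the difference. Of 7 tested, 0 were past the z-test in either direction (1 lower by unadjusted p), and the list's median difference was 0.02. Bcl2l11, which encodes Bim (chr2:128126038-128162547), was at 10.04 and 61.3 FPKM in attached and suspended control and 5.45 and 26.6 FPKM in JNK-deficient cells, by the authors' deposited tables. It stood lower without JNK in either state, with log2 ratios of -0.80 attached and -1.15 suspended, and rose in both (tested difference -0.32, SE 0.35 by the authors' p-values, adjusted p = 0.858). Bmf (chr2:118528757-118549678) was at 1.79 and 14.8 FPKM in control and 1.46 and 13.3 FPKM in JNK-deficient cells, by the authors' deposited tables (0.14, SE 0.18, adjusted p = 0.903), with near-equal levels in both genotypes. A p that misses the threshold does not show that the responses were equal.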

How the data were processed

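Messenger RNA of 12 samples in 4 groups of 3 was measured; groups were taken from the genotype and culture labels, which do not say whether samples are separate cultures or animals. Per the submitters' processing notes, TopHat, Bowtie, Cufflinks 1.0.3 and Cuffdiff were used with mm10; the sources used here do not name the annotation. The authors deposited 4 tables of 31026 entries with 1 FPKM value per group (3 samples pooled, scaled by transcript length and library size) and a p-value and q-value per comparison, per the file headers. The depth per sample is unknown, and the precision per sample cannot be seen. Cuffdiff assigns reads by estimate, so entries that overlap or are near copies can trade reads. Deposited locus starts count from 0 (9671 matched GENCODE starts after adding 1, and 892 as given), and positions are printed counting from 1.

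The log2 ratios were computed from the FPKM columns. The z-test divided the tested difference by a standard error, each log2 ratio's being its size over the normal score of the authors' two-sided p-value where that was at most 0.95. Suspension tables and genotype tables each gave such an error. Their mean was used where no p stood at the lowest step (5e-05), otherwise the one free of that step, otherwise the smaller upper bound (1717 of 12765 entries; median SE 0.228). P-values were adjusted by Benjamini-Hochberg over all 12765 entries (Python 3.11.15, scipy 1.17.1, statsmodels 0.14.6), and the script was tested on simulated data. The z-test compares pooled values through the authors' errors and measures only the spread those hold, which may be technical.

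Members and gene lists were chosen with earlier results of these data known. Named genes were the 25 most positive and 25 most negative differences among members with 1 symbol, without predicted genes, small RNAs and pseudogenes. Mapk8, Mapk9, Bcl2l11, Bmf and up to 4 genes of each list with at least 3 past the test were added. Other genes named were chosen after their values were seen, and the alternatives were not run on them gene by gene. Of 59 genes named by the rule, 39 matched a RefSeq promoter. Some items are not reported here.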

Additional observations from a re-analysis of the deposited data

Results flagged for a closer look

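The 33 genes named by the rule that were past the test of the difference are set out here. They were named by the size of that same difference or, from the lists, because they passed the test. Passing it is therefore no separate evidence that their responses differed. The values are tested differences, JNK-deficient minus control, on the log2 scale without added FPKM.

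Among chemokine, adhesion and NF-κB genes the tested differences were -4.38 for Cxcl3, -2.80 for Cxcl5, -2.40 for Ccl20, -1.54 for Ccl2, -2.40 for Icam1, -1.86 for Vcam1, -2.92 for Tnip3, -2.33 for Cd40 and -0.92 for Nfkbia. Among interferon-induced genes they were -2.03 for Rsad2, -1.76 for Oasl2, -1.72 for Usp18, -1.69 for Rtp4 and -0.95 for Irf7.

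The other genes with a lower response were Dtx3 (-4.65), Calcb (-3.66), Setd4 (-3.58), Ddx5 (-2.73), Cdkn1c (-1.98), Clca4 (-1.84), Wnt16 (-1.62), Fam65a (-1.41), Itgb6 (-0.91) and Itgb3 (-0.65). A higher response was found for R3hdm2 (3.56), Ptgr1 (2.05), Itgb8 (1.72), Adamts1 (1.63), Arhgdig (1.55), Galnt10 (1.18), Gjb1 (1.16), Gja1 (1.06) and Rn45s (0.97).

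Of these 33 genes, 9 stayed past the test under every alternative run on them, Dtx3, Calcb, Setd4, Cxcl3, Rsad2, Rtp4, Oasl2, Gja1 and Rn45s, and the other 24 lost the call under at least 1. The errors of these 9 are upper bounds, so the alternative without upper bounds was not run on them. From the suspension tables alone, an upper bound grows with the fold change. A gene that rose strongly in both genotypes, such as Vcam1 (log2 ratios 4.74 and 2.88), could then hardly pass. The split between the 9 and the 24 is therefore no plain measure of precision.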

How the results depend on the processing

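No paired analysis was possible because the tables hold 1 value per group and none per sample, and leaving out a replicate could not be run for the same reason. Of 58 counts recomputed under other settings 37 stayed within 1.5 times. Of 553 differences of named genes 520 moved by less than the limit, which was the standard error of each gene's tested difference. That limit is wide for some genes, such as Cyp1a1 (10.92). Settings that change only the FPKM threshold or the entries kept cannot move a gene's own difference, so many of the 520 could not have moved. Of the 553, 2 changed sign, both of Bmf (main 0.04, -0.042 with 5 FPKM added and -0.019 centred on the median). Of 351 repeats of named tests 53 lost the call and 1 gained it, Cdk5rap3 after GC and length correction (adjusted p from 0.0573 to 0.0454).

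The 67 members at 1 or above became 39 after GC and length correction and 19 with gene names only, a restriction added after seeing the data. The 111 at -1 or below became 62 with 5 FPKM added, 169 at a threshold of 1 FPKM, 62 at 20 FPKM, 169 with no filter and 63 with gene names only. The 70 entries higher by the test became 23 with standard errors from the suspension tables only, 43 from the genotype tables only, 4 without upper bounds, 44 centred on the median and 19 with the larger of the upper bounds, also added after seeing the data. The 160 lower became 80 from the suspension tables only, 27 without upper bounds and 70 with the larger upper bounds. Leaving out upper bounds removes entries from the test, so that only 95 of the 230 calls were still tested, and 31 of these stayed past it. Among named members at 1 or above, those that fell in control cells only numbered 6, and 10 with 0.1 FPKM added. With standard errors from the suspension tables only, integrin genes past the test went from 1 to 0 higher and from 2 to 1 lower (also 1 after GC and length correction), NF-κB genes from 3 to 0 lower and interferon-induced genes from 6 to 3 lower. Where the standard error is an upper bound it grows with the fold change, and 1 pooled value per group sets the limit on all of these values; the cause of the other shifts was not tested.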
